A study of Cavia porcellus with 34 samples.

Results

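Ankyrin and spectrin genes were followed across F1, F2 and F3 in the paraventricular nucleus of the hypothalamus (PVN), a nucleus whose neurons start the hormonal response to stress. The set was chosen by gene symbol, with the differences between treated and control animals in F1 and F3 in view, and lists 7 genes: ANK1, ANK2, ANK3, SPTB, SPTBN1, SPTBN4 and SPTAN1. A row was found for 6 of the 7 in each of the 3 expression tables, among 12592 genes in all, and all 6 passed the filter on low values in every generation. ANK3 was not analysed here. The F1 and F3 differences of these genes are therefore descriptions, given with their standard errors and with no p, while F2 took no part in the choice and was tested.

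Ankyrins are adaptor proteins that tether ion channels, pumps and adhesion molecules of the plasma membrane to the spectrin skeleton beneath it. Spectrins are long, flexible rods built from an alpha and a beta chain, and they cross-link short actin filaments into a lattice that lines the cell membrane and, in neurons, the axon. Ankyrin-R (ANK1) and beta-I spectrin (SPTB) are best known from the red blood cell but are also made by neurons. Ankyrin-B (ANK2) and beta-II spectrin (SPTBN1) act along the axon shaft, ankyrin-G (ANK3) and beta-IV spectrin (SPTBN4) organise the axon initial segment and the nodes of Ranvier, and alpha-II spectrin (SPTAN1) is the partner of the beta chains in the brain.

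The animals were female Dunkin-Hartley guinea pigs, all descended from F0 mothers injected in pregnancy, through the paternal line in F2 and F3, and were killed on postnatal day 40. The F0 mothers had received the synthetic glucocorticoid betamethasone (sGC) or saline vehicle (Veh), so F1 animals were exposed in utero, whereas F2 and F3 animals came from matings of F1 and F2 males with untreated females. RNA was taken from PVN micropunches of 5 Veh and 5 sGC animals in F1, of 5 Veh and 5 sGC animals in F2, and of 6 Veh and 6 sGC animals in F3. In F3, all Veh libraries and 4 sGC libraries came from a first sequencing batch, and 2 sGC libraries came from a second one. The deposited values are read counts per gene that the authors normalised by residuals and rounded, 1 table per generation. They are given below as scaled normalised counts, after division by a size factor per animal, and fold changes are log2 values with a pseudocount of 1. The 3 tables were normalised separately, so levels are not compared between generations, and no gene length was used, so levels are not compared between genes.

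The sum of the deposited values per animal ran from 15.6 to 21.9 M (mega, counts) in F1, from 15.6 to 19.4 M in F2 and from 18.7 to 19.0 M in F3. All 7 PVN neuroendocrine markers (AVP, OXT, CRH, TRH, SST, SIM1 and OTP) had a row in each table and none was at 0 in any animal. Summed markers of the neighbouring thalamus stood at 9386.1 scaled normalised counts in F1 Veh replicate SGM15, where the F1 Veh median was 2139.3, and at 5935.6 in F2 Veh replicate SGM28, where the F2 Veh median was 2177.3. Log2 differences that rest on these animals are given with and without them, and ratios within an animal only with them. In bulk punches, fewer cells of a type and less RNA per cell cannot be told apart.

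In F1, all 6 genes had a higher mean in sGC than in Veh, with a median log2 difference of 0.25 beside 0.0032 over all 11870 genes tested. The fit over all genes called 17.3% of them at an adjusted p under 0.05, and 3 of the 6 fell in that share, a count from a contrast that served the choice and no evidence for it. The groups did not overlap for 1 of the 6 (ANK2), beside 14.2% of all genes. In F3, all 6 had a lower mean in sGC, with a median of -0.08 beside -0.00020 over 11865 genes. The fit called 0.0421% of all genes there and 0 of the 6, and the groups did not overlap for 2 of the 6 (ANK1 and SPTB), beside 1.26% of all genes. The paper, with edgeR on the same animals, lists ANK1 and SPTB as differentially expressed in both F1 and F3 at a false discovery rate under 0.05. The mean of SPTBN1 and that of SPTAN1 turned to the other side of 0 in F3 with single animals left out, at most at 0.00045 and 0.0090. The opposite directions in F1 and F3 are what the genes were chosen for. Without the scaling between animals, the F1 fit called 78 genes in place of 2058, with 0 of the 6 among them.

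**Figure D1:**
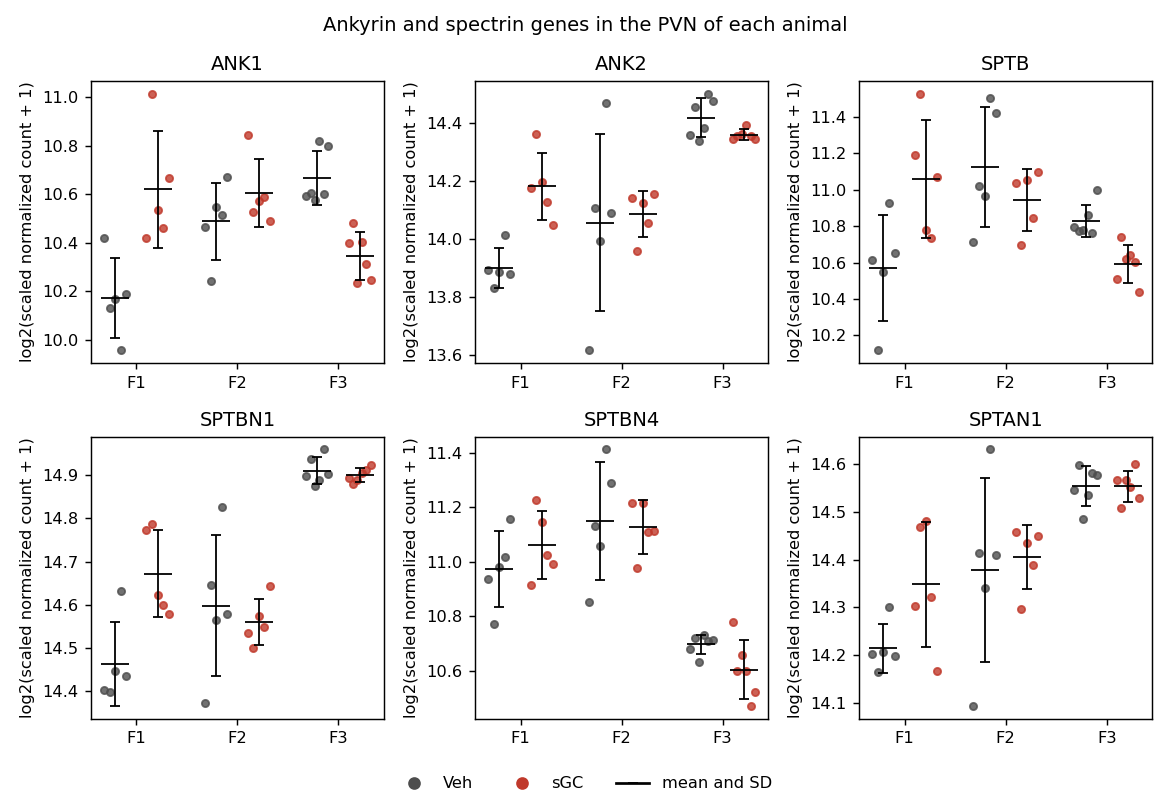
Each panel shows 1 gene, with a point per animal on the log2(scaled normalised count + 1) scale for Veh (grey) and sGC (red) in F1, F2 and F3, and the black bar and whiskers give the mean and SD. For ANK1 and SPTB the red points lie mostly above the grey ones in F1 and entirely below them in F3, and F2 shows 1 Veh animal far below and 1 far above the rest for ANK2 and SPTAN1.

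ANK1, the ankyrin of the red blood cell that neurons also express, was measured at 992.9, 1119.6, 1149.7, 1165.1 and 1369.7 scaled normalised counts in F1 Veh. The F1 sGC animals had 1369.5, 1410.3, 1482.7, 1622.9 and 2066.3. The lowest sGC animal thus lay just under the highest Veh animal, and the other 4 lay above all Veh animals. The Veh mean was 1159 ± 136 (SD, n = 5) and the sGC mean 1590.35 ± 283 (SD, n = 5), which is a log2 difference of 0.45 (SE 0.11). In F3, ANK1 ran from 1527.7 to 1807 in Veh (median 1553.7, n = 6) and from 1201.8 to 1427.9 in sGC (median 1310.2, n = 6). Every F3 sGC animal was below every Veh animal, and the log2 difference was -0.32 (SE 0.05). In the first F3 batch alone it was -0.29 (SE 0.06).

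ANK2 encodes ankyrin-B, which stabilises membrane transporters and takes part in axonal transport. In F1 Veh it stood at 14568.5, 15056, 15137.5, 15191.9 and 16547.6 scaled normalised counts. The F1 sGC values were 16935.3, 17878.1, 18500.3, 18760.5 and 21073.2. The groups did not overlap after scaling, whereas they overlapped on the deposited scale, where the values ran from 12780 to 17515 in Veh and from 15371 to 22579 in sGC. The log2 difference was 0.28 (SE 0.06) with scaling and 0.34 without it. In F3, ANK2 ran from 20698.5 to 23195.9 in Veh (median 21926.1) and from 20804.4 to 21540.8 in sGC (median 20967.2). The sGC animals fell within the Veh range and varied less, with a coefficient of variation of 1.29% against 4.69%, and the log2 difference was -0.06 (SE 0.03).

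SPTB, the beta-I chain of the red blood cell skeleton, had 1110.4, 1496.8, 1568.3, 1611.6 and 1943 scaled normalised counts in F1 Veh. The F1 sGC animals had 1701.6, 1755.3, 2152.9, 2339.7 and 2950.2. Only Veh replicate SGM15, the animal with the high thalamus markers, overlapped with the sGC range. On the deposited scale the groups were apart, since the highest Veh value was 1677 and the lowest sGC value 1787. The log2 difference was 0.49 (SE 0.17), and it was 0.58 without that animal. In sGC, replicates SGM16 and SGM12 (1701.6 and 1755.3) had PVN marker sums of 182007 and 143986. Replicates SGM20, SGM4 and SGM8, with higher SPTB, had sums of 51820.6, 21639.7 and 30842.1. Veh replicate SGM15, the highest Veh animal in SPTB, had a sum of 213380. Over all animals SPTB and the PVN markers had r = -0.39 (adjusted permutation p = 0.205), and -0.55 in F1. The part of punch content in this difference was not tested. In F3, SPTB ran from 1734.7 to 2042.3 in Veh (median 1767.2) and from 1388.8 to 1707.6 in sGC (median 1563.6). The 2 groups did not overlap, and the log2 difference was -0.23 (SE 0.05), or -0.20 (SE 0.05) in the first batch alone.

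SPTBN1, the beta-II chain of the axonal lattice, was at 21569.6, 21651.5, 22126.9, 22305.4 and 25369.4 scaled normalised counts in F1 Veh. In F1 sGC it was at 24447.1, 24797.1, 25226.1, 27987.4 and 28283.9. The highest Veh value again belonged to replicate SGM15, and the log2 difference was 0.21 (SE 0.06), or 0.25 without it. In F3 the log2 difference was -0.01 (SE 0.02), with 30070.4 to 31880.5 in Veh and 30177.5 to 31113.4 in sGC. The 2 F3 groups covered almost the same range. The within-group SD of SPTBN1 in F3 was 0.03 on the log2 scale, and 0.877% of the genes tested had a smaller one, without regard to their level.

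SPTBN4, the beta-IV chain of the axon initial segment, ran from 1745.9 to 2280.8 scaled normalised counts in F1 Veh and from 1927.9 to 2395.8 in F1 sGC, a log2 difference of 0.09 (SE 0.08). Its F3 log2 difference was -0.09 (SE 0.04), with Veh values of 1586.7 to 1696.3 (median 1673.7) and sGC values of 1417.8 to 1755.3 (median 1547.2). The 2 lowest of the F3 sGC animals, at 1417.8 and 1468.2, were those of the second batch, and the difference was -0.04 (SE 0.04) in the first batch alone. SPTAN1, the alpha-II chain, ran from 18346.4 to 20185.7 in F1 Veh and from 18372 to 22883.4 in F1 sGC, a log2 difference of 0.13 (SE 0.06). In F3 it was from 22942 to 24827 in Veh and from 23294.9 to 24848.2 in sGC, and the log2 difference was -0.00060 (SE 0.02). SPTBN4 and SPTAN1 thus overlapped between the groups in both generations.

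The same F1 sGC animal, replicate SGM8, had the highest value of ANK1, ANK2, SPTB, SPTBN1 and SPTBN4 in its group. Without it the F1 log2 difference was 0.35 for ANK1, 0.23 for ANK2, 0.37 for SPTB, 0.18 for SPTBN1 and 0.046 for SPTBN4. The SPTBN4 difference was also 0.038 without Veh replicate SGM7, 0.13 without Veh replicate SGM19 and 0.15 without scaling. All 5 kept a higher mean in sGC. Without Veh replicate SGM15, the lowest Veh animal in ANK1, the F1 log2 difference of ANK1 fell to 0.39. Without that animal it was 0.31 for ANK2, 0.10 for SPTBN4 and 0.16 for SPTAN1. Over all 17 alternative settings, which were other scalings, filters and pseudocounts and each animal left out in turn, the F1 differences of the 6 genes stayed above 0.

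**Figure D2:**
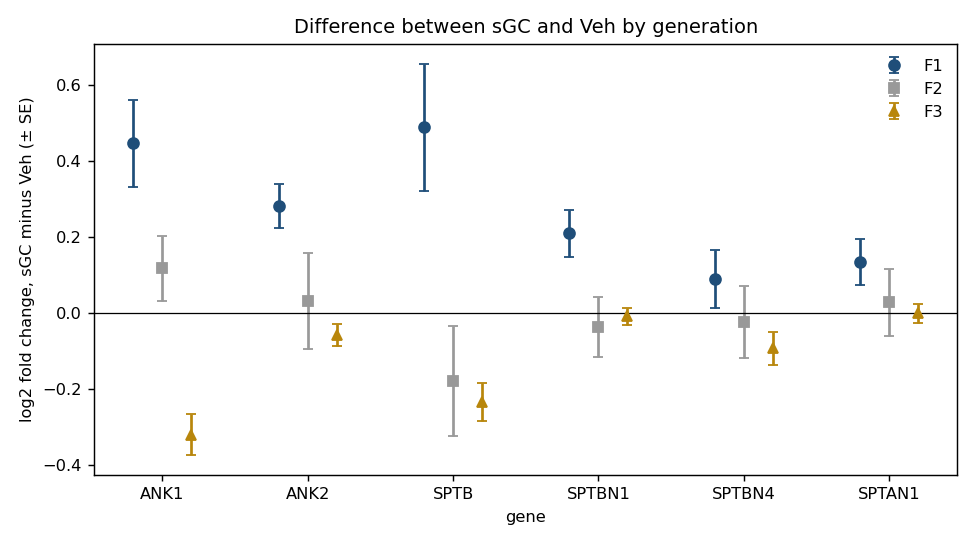
The log2 fold change of sGC over Veh (vertical axis, points ± SE) is plotted for the 6 genes in F1 (circles), F2 (squares) and F3 (triangles). ANK1 and SPTB stand at 0.45 and 0.49 in F1 and at -0.32 and -0.23 in F3, while the other 4 genes lie between -0.09 and -0.00060 in F3.

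F2 is the generation that took no part in the choice of the genes. None of the 6 passed the test between sGC and Veh there (limma with Benjamini-Hochberg adjustment over 11959 genes), and none had an unadjusted p under 0.05. Over all genes 0% were called, 1534 genes had an unadjusted p under 0.05, and 42 were called after quantile normalisation. The means were higher in sGC for 3 of the 6 and lower for 3, with a median log2 difference of 0.0025 beside -0.0020 over all genes, and no gene of the 6 had groups without overlap, beside 3.21% of all genes. The limma standard errors, from 0.08 to 0.14, set what could be seen here.

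ANK1 in F2 had 1209.4, 1411.4, 1461.2, 1494.7 and 1631.3 scaled normalised counts in Veh and 1437.9, 1473.2, 1522.9, 1540.1 and 1838.2 in sGC. The 2 ranges overlapped for most animals. The log2 difference was 0.12 (95% confidence interval -0.07 to 0.31, limma adjusted p = 0.644). On the log2 scale all 5 sGC animals were above the Veh mean, the lowest only just. The difference was 0.056 without Veh replicate SGM23, 0.058 without sGC replicate SGM21 and 0.043 without scaling. The adjusted p ran from 0.552 to 0.895 over 17 alternatives.

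SPTB in F2 had 1675.7, 2000.8, 2077.2, 2744 and 2907.1 scaled normalised counts in Veh and 1658.2, 1835.3, 2101.4, 2125.7 and 2192.2 in sGC. The upper end of the Veh range was set by 2 animals, which lay above all sGC animals. The log2 difference was -0.18 (95% confidence interval -0.50 to 0.14, limma adjusted p = 0.686), and all 5 sGC animals were below the Veh mean. It was -0.28 without Veh replicate SGM22, -0.08 without Veh replicate SGM28, -0.11 without Veh replicate SGM29 and -0.12 without sGC replicate SGM26, and over 17 alternatives the adjusted p ran from 0.282 to 0.875.

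The other 4 genes had small differences of either sign in F2, and without scaling ANK2 and SPTAN1 were at -0.043 and -0.046. ANK2 differed by 0.03 (95% confidence interval -0.25 to 0.31, limma adjusted p = 0.957) and SPTBN1 by -0.04 (-0.21 to 0.14, adjusted p = 0.910). SPTBN4 differed by -0.02 (-0.23 to 0.19, adjusted p = 0.959) and SPTAN1 by 0.03 (-0.17 to 0.22, adjusted p = 0.943). Their Veh animals were widely spread. ANK2 was at 12545.2 in Veh replicate SGM22 and at 22711.2 in Veh replicate SGM28, while the other 3 Veh animals and all sGC animals lay between 15916.2 and 18226.3. SPTAN1 had its lowest Veh value, 17476.9, and its highest, 25382.4, in the same 2 animals, and so did SPTBN1 and SPTBN4. Leaving out replicate SGM28 gave 0.14 for ANK2, and leaving out replicate SGM22 gave -0.08.

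Because SPTAN1 is the partner of the beta chains in the brain, the log2 ratio of SPTB to SPTAN1 was taken within each animal, where the scaling cancels. Its level also holds the lengths of the genes, so only its difference between groups is read. In F1 it ran from -4.05 to -3.38 in Veh and from -3.70 to -2.94 in sGC, a difference of 0.35 between the means. In F2 the difference was -0.21, and the groups overlapped in both generations. In F3 the ratio ran from -3.83 to -3.58 in Veh and from -4.09 to -3.77 in sGC, a difference of -0.23. A single F3 sGC animal, replicate SGM18, lay within the Veh range, and the difference was -0.19 in the first batch alone.

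The ratios of the other beta chains to SPTAN1 moved less. SPTBN1 to SPTAN1 differed by 0.08 in F1, -0.07 in F2 and -0.01 in F3, and SPTBN4 to SPTAN1 by -0.05, -0.05 and -0.09. SPTB to SPTBN1, the 2 beta chains against each other, differed by 0.28, -0.14 and -0.23. The ratio of ANK1 to ANK2 differed by 0.17 in F1, 0.09 in F2 and -0.26 in F3. In F3 it ran from -3.90 to -3.57 in Veh and from -4.13 to -3.87 in sGC, so that again 1 sGC animal, replicate SGM18, reached into the Veh range. The ratio of ANK1 to SPTB, the ankyrin and beta chain that pair in the red blood cell, differed by -0.04 in F1, 0.30 in F2 and -0.09 in F3. All groups overlapped for each of these ratios, and none was tested, since F1 and F3 served the choice of the genes.

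**Figure D3:**
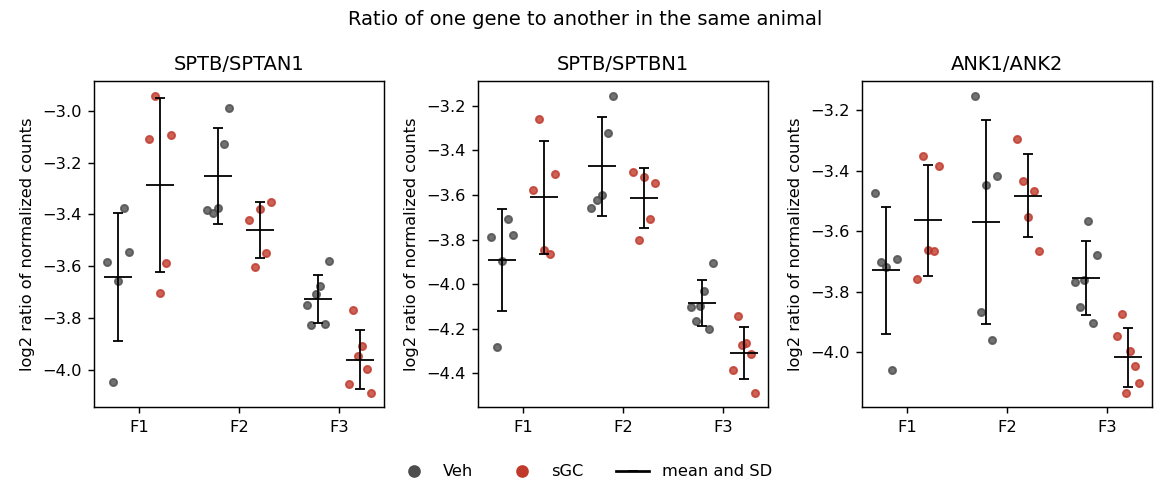
Points are log2 ratios of the normalised counts of 2 genes in the same animal, for Veh (grey) and sGC (red) in each generation, with the mean and SD in black. SPTB/SPTAN1 differs by 0.35 in F1 and by -0.23 in F3, and ANK1/ANK2 by 0.17 and -0.26, with 1 F3 sGC animal inside the Veh range in both.

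The choice of the genes did not use how animals of the same group vary around their mean, so the 15 pairs of genes were compared on these deviations over all 32 animals. ANK2 and SPTAN1 moved together most closely (Pearson r = 0.93, permutation p = 1e-05, the smallest that 100000 permutations can give; Spearman rho = 0.87). Leaving out the 2 animals farthest from the median left r at 0.84, and r was 0.84 in F1, 0.996 in F2 and 0.67 in F3. ANK2 and SPTBN1 had r = 0.89 and rho = 0.78 (both with a permutation p of 1e-05), with r = 0.76 without the 2 farthest animals and 0.71 in F3. SPTBN1 and SPTAN1 had r = 0.79 (permutation p = 0.00152, adjusted over the 15 pairs 0.00326) and rho = 0.65 (permutation p = 0.00127), with r = 0.55 without the 2 farthest animals. These 3 genes, ankyrin-B with the beta-II and alpha-II chains, thus kept a positive r in each generation. In all, 9 of the 15 pairs had an adjusted permutation p under 0.05, none of them with ANK1. Each p is against no relation, not against the relations of other genes. Of 11425 genes compared, the gene itself counted, 0.0525% had a higher r to ANK2 than SPTAN1 had, 0.333% than SPTBN1 and 5.16% than SPTB. To SPTBN1, 1.41% had a higher r than SPTAN1, and to SPTB 6.25%. A tie particular to ankyrins and spectrins was not tested.

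SPTBN4 and SPTAN1 had r = 0.75 (permutation p = 0.00031) and rho = 0.69 (permutation p = 0.00028), and SPTB and SPTBN1 had r = 0.71 (permutation p = 0.00152) and rho = 0.54 (permutation p = 0.0102). Both r values were lower in F3. SPTBN4 and SPTAN1 had r = 0.94 in F2 and 0.16 in F3, and SPTB and SPTBN1 had 0.79 in F2 and -0.43 in F3. In F2, Veh replicates SGM22 and SGM28 lay at the ends of the range of these genes.

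The 5 pairs with ANK1 had the 5 lowest r values of the 15. The r of ANK1 was 0.15 with ANK2 (permutation p = 0.511, rho = 0.04), 0.10 with SPTAN1 (permutation p = 0.673, rho = 0.03) and -0.11 with SPTBN1 (permutation p = 0.650, rho = -0.21). With SPTBN4 it was 0.35 (permutation p = 0.0965, rho = 0.33). With SPTB it was 0.40 (permutation p = 0.0866, adjusted 0.118, rho = 0.36), and within generations 0.37, 0.36 and 0.70 in F1, F2 and F3. Without scaling between animals these r values were higher, for example 0.48 with ANK2 and 0.62 with SPTBN4, and 4 of the 5 had an adjusted p under 0.05.

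**Figure D4:**
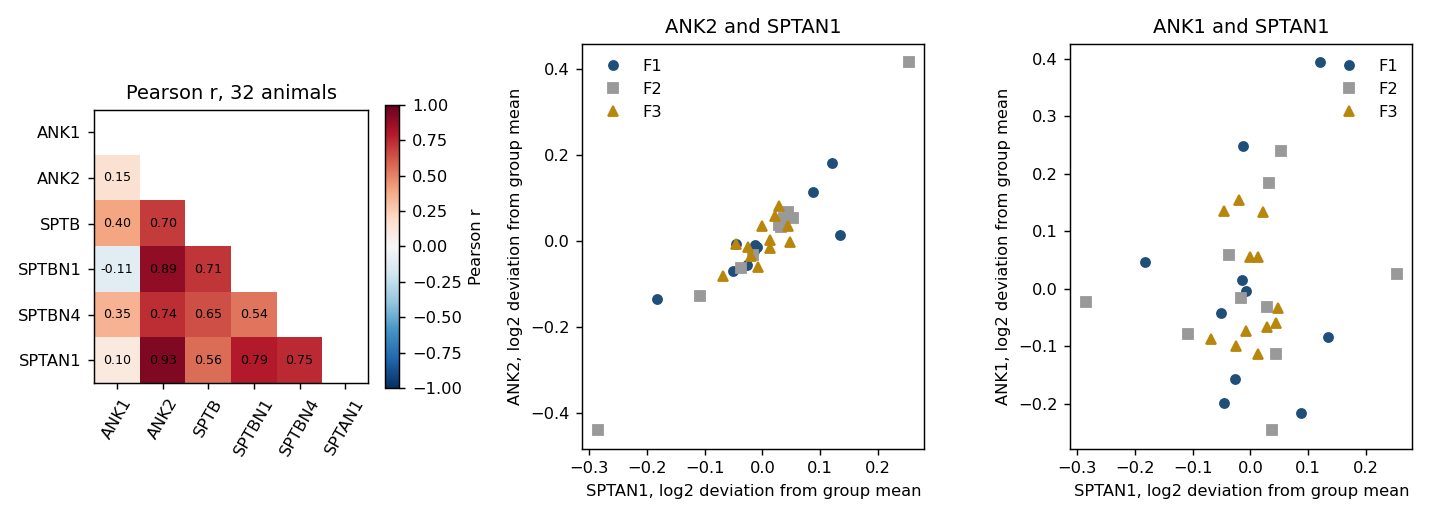
The left panel gives Pearson r for each of the 15 gene pairs over 32 animals, computed on log2 deviations from the group mean, and the other panels plot the deviations of ANK2 and of ANK1 (vertical) against those of SPTAN1 (horizontal) with a symbol per generation. ANK2 rises with SPTAN1 (r = 0.93), with 1 F2 animal at each end, while ANK1 shows no such line (r = 0.10).

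Among 11425 genes tested in all generations, the 5 whose deviations were most like those of ANK1 were NCALD (r = 0.78), ASPHD1 (0.77), CHGA (0.77), GRHL2 (0.77) and MYPN (0.75), each over 32 animals. CHGA encodes chromogranin A, a protein of secretory granules, and NCALD a neuronal calcium sensor. Their r to ANK1 lay between 0.54 and 0.93 within single generations. For SPTB they were BRSK1 (0.91), PANX2 (0.89), Kcnj11 (0.87), GGT7 (0.87) and ZBTB7A (0.87). Their r to SPTB lay between 0.86 and 0.97 in F1 and F2, and between 0.23 (Kcnj11) and 0.76 (PANX2) in F3. BRSK1 is a kinase of neuronal polarity, and PANX2 and Kcnj11 encode channel proteins. The ANK1 and SPTB lists share no gene, and SPTB ranked 793 in likeness to ANK1. These r values are descriptions, and the points share their generation and library.

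The deviations were also set against the mean deviation of 5 neuron markers (SNAP25, SYT1, RBFOX3, STMN2 and NEFL), among 54 relations of 9 marker lists with the 6 genes. SPTBN4 followed them with r = 0.84 (permutation p = 1e-05) and rho = 0.79 (permutation p = 2e-05, adjusted 0.00108), and SPTB with r = 0.75 (permutation p = 0.00011) and rho = 0.65 (permutation p = 0.00098, adjusted 0.0265). Without the 2 farthest animals r was 0.74 and 0.67. For ANK1 it was r = 0.51 (permutation p = 0.0173, adjusted 0.0791) and rho = 0.40 (permutation p = 0.0422, adjusted 0.158). SPTAN1 had r = 0.73 over all animals (adjusted permutation p = 0.0383, rho = 0.59, adjusted 0.0355) and r = -0.13 in F3. ANK2 had r = 0.78 (adjusted permutation p = 0.0232) and r = -0.09 in F3. Its rho of 0.53 (adjusted permutation p = 0.0548) was not past the threshold. Of the other lists, SPTAN1 ran against the astrocyte markers (r = -0.69, adjusted permutation p = 0.0383, rho = -0.43, adjusted 0.154) and SPTBN4 against the microglial ones (r = -0.58, adjusted permutation p = 0.0383, rho = -0.41, adjusted 0.155), while SPTBN1 followed the thalamus markers (r = 0.61, adjusted permutation p = 0.0587, rho = 0.61, adjusted 0.0355). Without the 2 farthest animals these r were -0.35, -0.43 and 0.59. SPTB had r = 0.55 with the oligodendrocyte markers (adjusted permutation p = 0.0791, rho = 0.55, adjusted 0.0548), not past the threshold. This r was 0.57 without the 2 farthest animals, and 0.90 in F1, -0.0076 in F2 and 0.48 in F3. With the muscle markers SPTB had r = -0.56 (adjusted permutation p = 0.0785). The part of cell content in the differences between sGC and Veh was not tested.

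Marker lists gave the following values beside the differences of the 6 genes. In F1, the neuron list had 3 of 6 genes higher and 3 lower in sGC, and its sum ran from 59729.7 to 70366.2 scaled normalised counts in Veh and from 56095.9 to 73126.6 in sGC. STMN2, a microtubule regulator of neurons, was lower by limma (log2 difference -0.21, adjusted p = 0.0197), but not without Veh replicate SGM11. All 7 PVN neuroendocrine markers had a lower mean in F1 sGC, with a sum of 111109 to 213380 in Veh and 21639.7 to 182007 in sGC, and TRH, the thyrotropin-releasing hormone, passed the test (-1.003, adjusted p = 0.0398). TRH passed under 7 of 17 alternatives (adjusted p from 0.00594 to 0.0864), and not without scaling, with the removed directions as covariates or without any 1 of the Veh animals or sGC replicate SGM4, SGM12 or SGM20. All 9 oligodendrocyte markers had a higher mean, none past the test, with sums of 34818.9 to 62213.8 in Veh and 38701.5 to 105098 in sGC, where SGM8 was the highest. The microglial list had 3 of 6 genes higher and 3 lower in sGC. CX3CR1, a microglial receptor, was higher (0.25, adjusted p = 0.0496), the 1 called of these 6, beside 17.3% of all genes called. It passed under 5 of 17 alternatives (adjusted p from 0.0311 to 0.322), and not without scaling, with quantile normalisation, no filter or the removed directions as covariates, or without SGM4, SGM7, SGM8, SGM11, SGM15, SGM16, SGM19 or SGM20. The endothelial list had 5 of 5 means higher and none called, led by CDH5 (0.76, adjusted p = 0.0511). Their part in the F1 differences was not tested.

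In F2, the 10 oligodendrocyte markers all had a lower mean in sGC and none passed the test, led by MOBP (-0.87, adjusted p = 0.127), and their sum ran from 138060 to 259759 in Veh and from 81095.8 to 115538 in sGC, without overlap. All 7 PVN markers had a higher mean, led by OXT (0.72, adjusted p = 0.242). All 6 astrocyte markers were also higher in F2 sGC (median 0.14). The 5 endothelial (median -0.30), 6 microglial (-0.15) and 5 neuron markers tested (-0.13) were all lower. The erythrocyte, muscle and thalamus lists went both ways, and no marker was called. The part of these lists in the F2 values was not tested. In F3, 5 of 5 neuron markers had a lower mean in sGC, none past the test, with sums of 60596.8 to 67349 in Veh and 58775.7 to 63295 in sGC, and NEFL, a neurofilament gene, had the largest difference (-0.19, adjusted p = 0.280). All 5 muscle markers with a row had a higher mean in F3, led by MYH11 (0.87, adjusted p = 0.135), and so had all 6 microglial markers (median 0.12), led by TYROBP (0.18, adjusted p = 0.214). No gene of the astrocyte, muscle or thalamus lists passed the test in any generation. The part of these lists in the F3 differences was not tested.

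Since ANK1 and SPTB are known from red blood cells, erythrocyte markers were read separately. Of 11 listed, 4 had a row in F1, 3 in F2 and 4 in F3, and HBA1, HBB, EPB42 and AHSP were among those not analysed here. Their summed level ran from 2845.8 to 3163.1 scaled normalised counts in F1 Veh and from 2813.9 to 3053.8 in F1 sGC. In F3 it ran from 2396.4 to 2530.4 in Veh and from 2290.2 to 2539.3 in sGC. The groups overlapped in both generations, and no marker passed the test. Most of this sum was SLC4A1, the band 3 anion exchanger to which ankyrin-R binds, with a log2 difference of -0.03 (SE 0.04) in F1 and -0.02 (SE 0.03) in F3. It is not known whether this symbol stands for the same gene model in all 3 tables. ALAS2, the heme synthesis enzyme of red blood cell precursors, differed by -0.55 (SE 0.67, adjusted p = 0.605) in F1 and by -0.97 (SE 0.43, adjusted p = 0.360) in F3.

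Partner genes of the ankyrins and spectrins were read from 7 lists of 52 genes. In F1, 8 of the 46 tested were called by limma, 7 higher and 1 lower in sGC, which is 17.4% beside the 17.3% of all genes. In F2 and F3 none was called, of 46 and 45 tested. The partner genes as a whole were thus called as often as any gene in F1. On the deposited scale without scaling, the lists of other spectrins, adhesion molecules and spectrin-actin junction genes had no call in F1, and neither had the neuron, PVN and microglia marker lists.

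SPTBN5, the beta-V chain, fell in F1 by 0.37 on the log2 scale (SE 0.07, adjusted p = 0.00815), from 381 ± 22.6 (SD, n = 5) to 294 ± 25.2 (SD, n = 5) scaled normalised counts. In F2 and F3 it differed by 0.07 (adjusted p = 0.890) and -0.06 (adjusted p = 0.817), neither past the test.

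Of 11 genes of the axon initial segment, where ankyrin-G gathers voltage-gated channels, 3 were called higher in F1, beside 17.3% of all genes called in either direction. They were the sodium channel subunits SCN4B (log2 difference 1.502, SE 0.33, adjusted p = 0.0130), SCN1A (0.62, SE 0.18, adjusted p = 0.0379) and SCN3A (0.16, SE 0.05, adjusted p = 0.0475). SCN4B stood at 11.7 ± 2.6 (SD, n = 5) scaled normalised counts in Veh and at 37.9 ± 18.9 (SD, n = 5) in sGC, a low level at which the pseudocount understates the difference. The list had 10 of 11 means higher in F1 and 10 of 11 lower in F3, with medians of 0.16 and -0.04, beside 0.0032 and -0.00020 over all genes. SCN4B differed by -0.48 (adjusted p = 0.367) in F2 and by -0.49 (adjusted p = 0.416) in F3, neither past the test. In F1, SCN4B passed under all 16 alternatives that kept it, SCN1A under 10 of 17 and SCN3A under 5 of 17. The calls of SCN1A and SCN3A were both lost with the removed directions as covariates and without Veh replicate SGM3, SGM7 or SGM11 or sGC replicate SGM8 or SGM20, that of SCN1A also without SGM4, and that of SCN3A also without SGM12, SGM15, SGM16 or SGM19, without scaling and with quantile normalisation.

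NFASC, neurofascin, an adhesion molecule that binds ankyrin at the initial segment and nodes, rose in F1 (0.37, SE 0.11, adjusted p = 0.0439). It was 1 of 4 such molecules, beside 17.3% of all genes called, and differed by -0.31 (adjusted p = 0.403) in F2. Its F1 call held under 9 of 17 alternatives (adjusted p from 0.0235 to 0.126) and was lost without scaling, with the removed directions as covariates and without Veh replicate SGM3, SGM7, SGM11 or SGM19 or sGC replicate SGM4 or SGM12. In F3 the 4 were led by CHL1 (-0.07, adjusted p = 0.389). None of 6 genes of the node and paranode was called in any generation, although all 6 means were higher in F1 (median 0.38) and lower in F3 (median -0.04). KCNA1, a potassium channel of the juxtaparanode, differed by 0.63 (adjusted p = 0.129) in F1, -0.58 (adjusted p = 0.147) in F2 and -0.27 (adjusted p = 0.507) in F3. The paper's own edgeR test lists KCNA1 as differentially expressed in F1 and F2. Among 12 genes of the spectrin-actin junction tested in F1, EPB41 (protein 4.1R, which strengthens the binding of spectrin to actin) rose by 0.30 (SE 0.06, adjusted p = 0.0109) and ADD1 (alpha-adducin, which caps actin and recruits spectrin) by 0.17 (SE 0.04, adjusted p = 0.0183). These were 2 of the 12, beside 17.3% of all genes called, and the call of ADD1 was also lost without Veh replicate SGM11. EPB41 differed by -0.13 (SE 0.04, adjusted p = 0.176) in F3, and TMOD1 by -0.11 (adjusted p = 0.689) in F2.

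No gene of the pumps and exchangers bound by ankyrin was called in any generation. In F2 they were led by SLC8A3 (-0.18, adjusted p = 0.474) and in F3 by ITPR1 (0.14, adjusted p = 0.772). The 4 genes of the calpain system, the proteases that cleave alpha-II spectrin and their inhibitor, had no call either. They were led by the inhibitor CAST in F1 (0.21, adjusted p = 0.295) and by CAPN1 in F2 (-0.08, adjusted p = 0.637) and F3 (-0.12, adjusted p = 0.522).

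**Figure D5:**
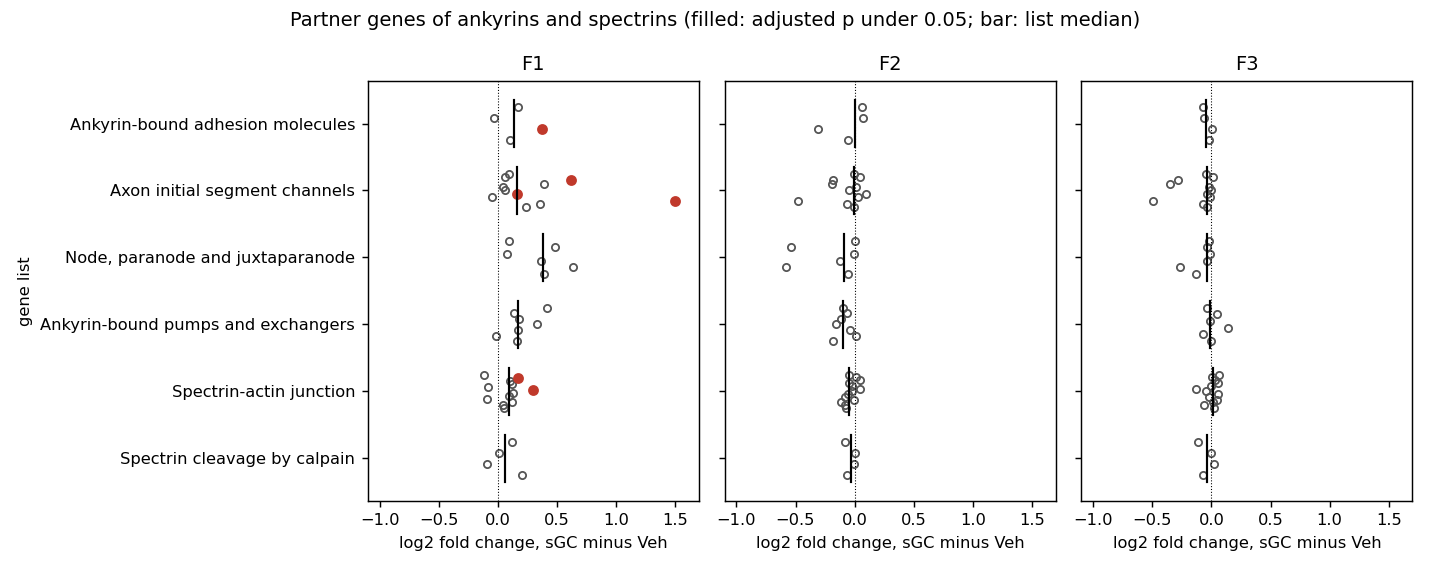
Each point is a partner gene, placed by its log2 fold change of sGC over Veh (horizontal axis) in 1 of 6 lists (vertical axis, the list of other spectrins left out), with filled red points for an adjusted p under 0.05 and a black bar at the list median. The filled points are all in F1, where they lie right of 0.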

How the data were processed

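RNA of PVN micropunches was measured by mRNA sequencing. The authors aligned the reads to the guinea pig assembly cavPor3 (TopHat2, per the submitters' processing notes), counted them per gene with GenomicAlignments, removed outliers by Cook's distance, corrected the F3 batches with ComBat and normalised by residuals with RUVSeq. The values the authors deposited are rounded normalised counts, analysed as a score, since they are no longer raw reads. How reads shared by related genes were counted is not given in the sources used here. The deposited tables also hold the authors' dispersion, fold change, mean level, likelihood ratio, p-value and false discovery rate, which were not used. The deposited values lacked 1 direction of variation in the F1 table, 1 in the F2 table and 2 in the F3 table, called the removed directions here. Which processing step took out each of them cannot be told from the values, and F3 also went through ComBat.

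Values were divided by median-of-ratios size factors within each table and fitted per generation on log2(value + 1) in limma (version 3.58.1, R version 4.3.3), using lmFit and eBayes with a mean-variance trend. Genes with a scaled mean of 10 or more entered, p-values were adjusted by Benjamini-Hochberg over all of them, and the threshold was 0.05. The procedure was tested on simulated data. Precision is limited by the group sizes and by the sums per animal, from 15.6 to 21.9 M (mega), and no interval from raw reads is given. Each label names a separate animal, and the study counts litters. The genes and lists were chosen with earlier results of these data known. Named besides the 6 genes were, per list and generation, at most 3 genes past the threshold by size of change, or the largest change where none passed, and the 5 genes most like ANK1 and SPTB. SLC4A1 was named after its values were seen. Alternatives were other scalings, filters and pseudocounts, the removed directions as covariates, the F3 batch and each animal left out in turn. Re-sequenced libraries of 2 F3 Veh animals were not analysed here. Results of some list genes are not reported here.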

Additional observations from a re-analysis of the deposited data

Results flagged for a closer look

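In F1 Veh, SPTBN1 in replicate SGM15 stood at 14.63 on the log2 scale, apart from the other 4 animals at 14.40 to 14.45. This animal also had the highest thalamus marker sum of its group. In F2 sGC, ANK1 in replicate SGM21 stood at 10.84, where the others ran from 10.49 to 10.59. In F1 sGC, the deposited values of replicate SGM20 summed to 16.23 M (mega), where the others ran from 19.09 to 20.0045 M. Of 42 groups of values examined, 3 had such an animal, and chance flags about 1 in 20, or 2.1.

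On the log2 scale, and against the mean of the Veh log2 values, every sGC animal was above the Veh mean for ANK1 in F1 and in F2 and below it in F3, and the log2 differences were apart by 0.77 (F1 and F3) and 0.44 (F2 and F3). For ANK2, every sGC animal was above the Veh mean in F1 and below it in F3, with differences apart by 0.34. For SPTB, every sGC animal was above the Veh mean in F1 and below it in F2 and in F3, with differences apart by 0.67 (F1 and F2) and 0.72 (F1 and F3). These distances between generations were not tested. Those of F1 and F3 include the contrasts the genes were chosen on.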

How the results depend on the processing

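Without scaling, 78 genes were called in F1 in place of 2058, and with the removed directions as covariates 1345. Leaving out each animal gave 904 (without Veh replicate SGM11) to 2021. Of the 6 genes, 0 were called in F1 without scaling, and 1 (without Veh replicate SGM7 or SGM11) to 4 with each animal left out. In F2, quantile normalisation gave 42 calls and leaving out each animal 0 to 2 (2 without Veh replicate SGM23 or SGM28), with none of the 6 in any setting. In F3, in place of 5, there was 1 call with the removed directions, 3 with batch as a covariate, 0 in the first batch alone and 1 to 17 with each animal left out (17 without sGC replicate SGM18, 16 without Veh replicate SGM14). Of the 6 genes, 0 were called in F3 except without SGM14 or SGM18, which gave 1 (ANK1). The F1 and F3 counts of the 6 genes come from contrasts that served their choice and are no evidence for it.

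Signs turned for some F2 differences, for ANK1 pairs and, in F3, for SPTBN1 (highest 0.00045, without Veh replicate SGM9) and SPTAN1 (highest 0.0090, without sGC replicate SGM18). Without scaling, ANK2 was -0.043 and SPTAN1 -0.046, and with quantile normalisation SPTBN1 was 0.0057. With each animal left out, ANK2 ran from -0.079 (without Veh replicate SGM22) to 0.14 (without SGM28), SPTAN1 from -0.043 to 0.092, SPTBN1 from -0.094 to 0.021 and SPTBN4 from -0.097 to 0.044, with the same 2 animals left out. The r of ANK1 with SPTBN1 was 0.46 without scaling, and that with SPTAN1 -0.027 with scaling to the total. The pair and F1 and F3 gene-set alternatives were chosen after seeing the data. All 126 alternative F3 differences and all 240 alternative ratios moved by less than 1 SD, and of 102 in F1 only SPTBN1 moved further (0.32 with quantile normalisation). The causes were not tested. No paired analysis was possible because the labels give each animal its own number.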

Other observations

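SLC4A1, the band 3 partner of ankyrin-R, stood at 2808.9 ± 89.1 (SD, n = 5) scaled normalised counts in F1 Veh, at 115 ± 10.97 (SD, n = 5) in F2 Veh and at 2289.8 ± 57.7 (SD, n = 6) in F3 Veh, in tables that were normalised separately. The levels are not comparable across tables, and whether the symbol stands for the same gene model in each of them is not known.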
